A study of Mus musculus with 36 samples.

Results

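RNA of sorted P-bodies was compared with RNA of the cytoplasm in mouse embryonic stem (ES) cells lacking Ago2. The comparison used 4 of the 36 libraries of the series, 2 of P-bodies and 2 of cytoplasm, and 16808 genes, those of the 48440 listed whose reads reached 10 over all 4 of them. The cells were v6.5 ES cells, derived from a cross of C57BL/6 and 129S4Sv/Jae mice and kept in a medium for the naive state, an early state of pluripotency. In the knockout (KO) line a pair of CRISPR-Cas9 guides had removed exon 1 of Ago2, and lines had been grown from single sorted cells. How many clones stand behind the libraries is not given in the sources used here. The cells also carried a lentiviral transgene with the EF1a promoter that made LSM14A, a P-body protein, as a fusion with green fluorescent protein (GFP). P-bodies were sorted as GFP-positive particles, and the cytoplasm libraries held the fraction from which they were sorted. The study describes the replicates of its sequencing as biological, and the labels do not say what separated them, so that p-values measure only the spread between these libraries. Naive ES cells with intact Ago2 and the same transgene, with 2 libraries per fraction, are set beside the KO cells where this helps. Their counts came from another pipeline and another gene annotation. The library method behind the KO counts is not given in the sources used here, and it could differ too. Genotype, pipeline and library method therefore cannot be told apart in any difference between the 2 cell lines, and no such difference was tested. The control line sequenced alongside the KO line was not analysed here.

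P-bodies are cytoplasmic condensates that hold messenger RNA (mRNA) out of translation together with proteins that repress, decap and deadenylate it. AGO2 is the most abundant Argonaute protein in many cells. It carries microRNAs (miRNAs), which pair through their seed with sites in the 3′ untranslated region (UTR) of an mRNA and bring in GW182 proteins, the CCR4-NOT deadenylases and the helicase DDX6. The miRNAs of the miR-290 and miR-302 clusters dominate in ES cells, whereas let-7 miRNAs rise on differentiation and are held low by LIN28 proteins.

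Ago2 itself was at 3.68 and 2.54 CPM in P-bodies against 4.03 and 4.83 CPM in the cytoplasm, or 58, 45, 69 and 73 reads. CPM are counts per unit of sequencing depth, scaled by the trimmed mean of M values (TMM), and values are given for replicate 1 and then replicate 2 throughout. Both KO P-body libraries lay below both cytoplasm libraries, with a log2 fold change (log2(FC), P-body over cytoplasm) of -0.51 ± 0.36 (standard error, SE, n = 2 and 2) and an adjusted p of 0.425. In naive cells Ago2 was at 120.4 and 115 CPM in P-bodies and 63.98 and 78.4 CPM in the cytoplasm. All 20 naive markers listed had a mean of at least 10 CPM over the KO libraries, with Pou5f1, which encodes OCT4, at 295 and 297 CPM in P-bodies against 389 and 343 CPM in the cytoplasm.

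The 4 KO libraries held 15624342 to 17486206 reads. The P-body libraries were closer to each other than the cytoplasm libraries, with a standard deviation (SD) of the log2 difference between replicates of 0.27 and 0.609 over the 8373 genes with a mean of at least 10 CPM. Rn18s-rs5, a copy of the 18S ribosomal RNA (rRNA), took 1.37% and 2.43% of the P-body reads and 6.23% and 24.0% of the cytoplasm reads, the second cytoplasm library standing apart. Gm42418, which overlaps it in the genome, took 3.88%, 7.30%, 10.2% and 2.63% of the reads of the same libraries. How reads were divided between these 2 genes and AY036118, at the same place, is uncertain. Reads given to Lars2, a mitochondrial leucine tRNA synthetase gene, were 1.57% and 2.72% of the P-body reads and 4.24% and 9.57% of the cytoplasm reads. This share rose with that of Rn18s-rs5 over the 4 libraries. In naive cells it was 0.0508% and 0.0499% in P-bodies and 0.0980% and 0.121% in the cytoplasm. Whether these reads came from Lars2 mRNA was not tested. Beside Rn18s-rs5, Gm42418 and Lars2 only Eif2s2, described further on, was among the 3 genes with most reads in any KO library.

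P-body and cytoplasm differed for 1095 of the 16808 genes (6.51%) by the quasi-likelihood test of edgeR at a Benjamini-Hochberg adjusted p under 0.05. Of these, 919 (5.47%) were enriched in P-bodies and 176 (1.05%) were depleted. The P-body and cytoplasm libraries did not overlap in any of these genes, so that a lack of overlap adds nothing to a call. DESeq2 called 1731 genes, 1215 enriched and 516 depleted, so that the enriched share of calls was 83.9% with edgeR and 70.2% with DESeq2. The count was 446 without P-body replicate 1, 603 without P-body replicate 2, 5617 without cytoplasm replicate 1 and 2134 without cytoplasm replicate 2. The median log2(FC) over all genes tested was 0.04. Both P-body libraries lay above both cytoplasm libraries in 4941 genes (29.4%) and below in 4479 (26.6%). Of the 176 depleted genes 167 were higher in cytoplasm replicate 2 than in replicate 1 (94.9%), as were 46.9% of all genes with a mean of 10 CPM or more and 443 of the 919 enriched genes (48.2%). Coding genes made up 837 of the enriched and 165 of the depleted genes. Among 436 long intergenic noncoding RNAs 23 were enriched and 1 was depleted.

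The genes with the largest enrichment of at least 10 CPM included regulators of the cell cycle, RNA processing and transcription. Gm14124, a predicted protein-coding gene (mm10 chr2:150257517-150270300, plus strand), led with 141 and 87.6 CPM in P-bodies against 8.17 and 4.23 CPM in the cytoplasm (log2(FC) 4.20 ± 0.40, adjusted p = 0.00209). Ccne2, which encodes cyclin E2, a partner of CDK2 at the entry into S phase (chr4:11191351-11204779, plus strand), followed with 132 and 164 CPM in P-bodies against 14.4 and 9.99 CPM in the cytoplasm (log2(FC) 3.60 ± 0.30, adjusted p = 0.00209). In both genes the lower P-body library stood several-fold above the higher cytoplasm library. Nsrp1, a splicing regulator of nuclear speckles (chr11:77044292-77078435, minus strand), was at 623 and 572 CPM in P-bodies against 67.3 and 35.1 CPM in the cytoplasm (log2(FC) 3.54 ± 0.39, adjusted p = 0.00216). Esf1, a nucleolar factor of rRNA processing (chr2:140119883-140170564, minus strand), was more abundant, at 1109 and 860.0 CPM in P-bodies against 106 and 75.3 CPM in the cytoplasm (log2(FC) 3.44 ± 0.35, adjusted p = 0.00212). The libraries of the fractions did not overlap in any of the 10 leading genes, as the rule of choice required. Srek1ip1 and Cwf19l2, both linked to splicing, had log2(FC) values of 3.14 and 3.13. The numbered zinc finger genes Zfp941, Zfp948 and Zfp712 were at 3.46, 3.24 and 3.05, and mt-Tq, a mitochondrial glutamine tRNA gene, at 3.03.

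**Figure D1:**
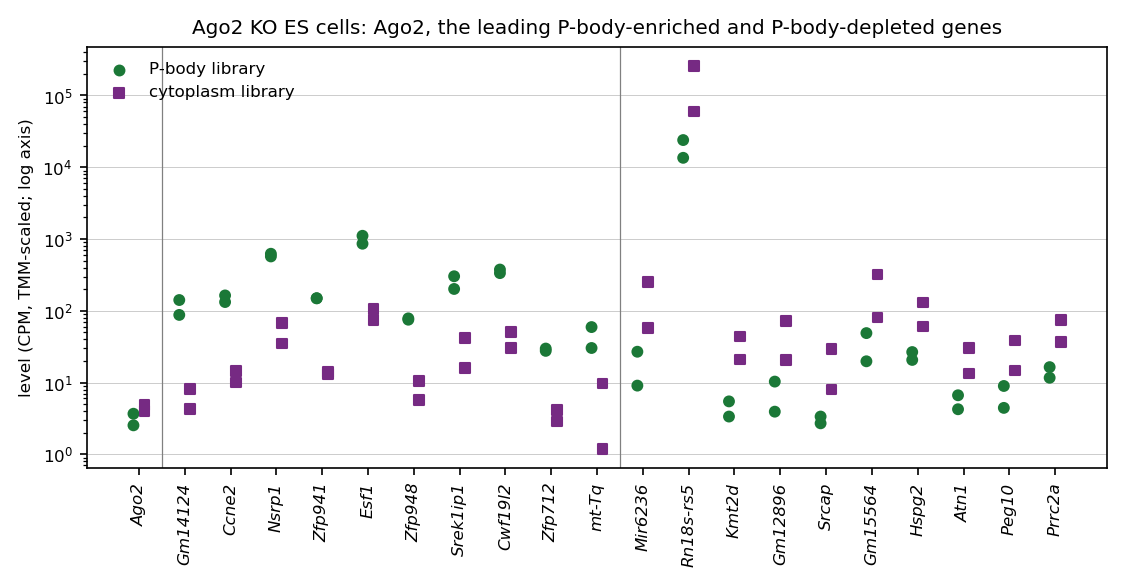
Levels in the 4 Ago2 KO libraries of Ago2, of the 10 genes most enriched and of the 10 most depleted in P-bodies, as TMM-scaled CPM on a log axis, with 1 point per library (circles, P-bodies, squares, cytoplasm). The cytoplasm squares of the depleted genes lie far apart, as for Rn18s-rs5 at 59679.5 and 256193 CPM, whereas Zfp941 was at 149 and 149.5 CPM in P-bodies and 13.1 and 14.1 CPM in the cytoplasm.

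The genes most depleted from P-bodies were noncoding RNAs and long coding genes. Rn18s-rs5 (chr17:39846353-39848827, minus strand) was at 13529 and 23916 CPM in P-bodies against 59679.5 and 256193 CPM in the cytoplasm (log2(FC) -3.08 ± 0.64, adjusted p = 0.0258). Mir6236, the pseudogene Gm12896 and the antisense gene Gm15564 had log2(FC) values of -3.10, -2.70 and -2.54. All 4 were highest in cytoplasm replicate 2, the library with the largest Rn18s-rs5 share, and what part this library had in their depletion was not tested beyond leaving it out. Without it their log2(FC) values were -1.71, -1.70, -1.56 and -1.27. Kmt2d, which encodes a methyltransferase of histone H3 lysine 4 (chr15:98831669-98871204, minus strand), was at 3.36 and 5.47 CPM in P-bodies against 21.01 and 43.99 CPM in the cytoplasm (log2(FC) -2.87 ± 0.41, adjusted p = 0.00476). Srcap, the ATPase that places histone H2A.Z (chr7:127511983-127561219, plus strand), was at 3.36 and 2.71 CPM in P-bodies against 7.996 and 29.1 CPM in the cytoplasm (log2(FC) -2.61 ± 0.54, adjusted p = 0.0258). In both genes, as in every depleted gene, each P-body library was below each cytoplasm library. Hspg2, which encodes the basement membrane proteoglycan perlecan, was at 20.7 and 26.6 CPM in P-bodies against 60.2 and 130.3 CPM in the cytoplasm (log2(FC) -2.01 ± 0.37, adjusted p = 0.0144). The corepressor gene Atn1 (-1.99), the imprinted gene Peg10 (-1.98) and Prrc2a (-1.98) completed the 10 most depleted. Without cytoplasm replicate 2 the log2(FC) was -2.28 for Kmt2d, -1.43 for Srcap, -1.38 for Hspg2, -1.33 for Atn1, -1.16 for Peg10 and -1.43 for Prrc2a.

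The miRNA seeds followed here are printed first, since the target results turn on them. Mature sequences are those of RefSeq (GRCm38.p6), 5′ to 3′, with the seed, bases 2 to 8, in capitals. The let-7 miRNAs let-7a (chr13:48538239-48538260, minus strand) and let-7g (chr9:106178846-106178867, plus strand) share a seed. So do miR-294, miR-295 and miR-291a of the miR-290 cluster (chr7:3220691-3220712, chr7:3220815-3220837 and chr7:3218968-3218989, plus strand) and miR-302b (chr3:127545275-127545297, plus strand). The seeds of miR-300 and miR-381 (chr12:109724363-109724384 and chr12:109726870-109726891, plus strand), which the study followed in naive cells, differ from each other.
mmu-let-7a-5p: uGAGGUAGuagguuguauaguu
mmu-let-7g-5p: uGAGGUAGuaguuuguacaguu
mmu-miR-294-3p: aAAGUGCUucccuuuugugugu
mmu-miR-295-3p: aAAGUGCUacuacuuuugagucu
mmu-miR-291a-3p: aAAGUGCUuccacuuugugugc
mmu-miR-302b-3p: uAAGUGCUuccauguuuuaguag
mmu-miR-300-3p: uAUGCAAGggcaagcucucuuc
mmu-miR-381-3p: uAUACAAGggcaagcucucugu

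The let-7 targets lay on both sides of 0 in Ago2 KO cells. Of 26 known let-7 targets 1 was enriched (background 5.47% of all genes) and none was depleted by edgeR, their median log2(FC) was -0.03, and 13 lay above 0. At an unadjusted p under 0.05 there were 4 in each direction, and DESeq2 called 2 enriched and 1 depleted. In naive cells 18 of the 26 were enriched, against 22.6% of all genes, with a median of 1.02 beside -0.06 for all genes. Lin28b, which encodes an inhibitor of let-7 processing, was at 14.7 and 16.2 CPM in P-bodies against 6.77 and 8.60 CPM in the cytoplasm and did not pass the test (log2(FC) 1.01 ± 0.26, adjusted p = 0.0566). In naive cells Lin28b was at 36.2 and 33.9 CPM in P-bodies and 2.68 and 2.92 CPM in the cytoplasm (log2(FC) 3.64 ± 0.17). Hmga2, a chromatin protein gene, did not pass either, at 17.4 and 23.8 CPM in P-bodies against 6.42 and 11.9 CPM in the cytoplasm (log2(FC) 1.18 ± 0.34, adjusted p = 0.0735), nor did Nras, at 75.7 and 81.1 CPM in P-bodies against 57.8 and 65.4 CPM in the cytoplasm (naive log2(FC) 2.45 ± 0.10). Nr6a1, an orphan nuclear receptor gene with 3 let-7 sites in the window searched, overlapped between fractions at 40.2 and 51.1 CPM in P-bodies against 35.7 and 62.1 CPM in the cytoplasm (log2(FC) -0.10 ± 0.30, adjusted p = 0.879), and in naive cells it was at 199 and 192 CPM in P-bodies and 28.5 and 38.5 CPM in the cytoplasm.

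Both P-body libraries were above both cytoplasm libraries in 9 of the 26 let-7 targets, against 29.4% of all genes, and below them in 8, against 26.6%. None of these 8 passed the test. Igf2bp1, an mRNA-binding protein gene, was at 138 and 158 CPM in P-bodies against 216 and 315 CPM in the cytoplasm (log2(FC) -0.85 ± 0.30, adjusted p = 0.124). Trim71, a ubiquitin ligase gene of early development, was at 53.5 and 63.5 CPM in P-bodies against 72.5 and 100.3 CPM in the cytoplasm (log2(FC) -0.56 ± 0.26, adjusted p = 0.23). Sall4, a zinc finger factor gene of pluripotent cells, had a log2(FC) of -0.69 ± 0.30, Cdc25a, a phosphatase gene of the cell cycle, -0.58 ± 0.26, and Dicer1, the miRNA processing enzyme, -0.62 ± 0.27. Lin28a was near the limit of detection, at 1.14 and 0.902 CPM in P-bodies against 1.17 and 2.98 CPM in the cytoplasm. In naive cells the log2(FC) of Igf2bp1 was 0.60 ± 0.10 and that of Trim71 1.12 ± 0.26, both with P-body libraries above cytoplasm libraries. A let-7 site of 5 of these mRNAs, from the mm10 genome, is printed below, 1 for each although Nr6a1 and Igf2bp1 hold 3 and Trim71 holds 4, 5′ to 3′ on the strand of the gene, with the 8 letters of the site in capitals and the coordinates of each 30-base window in mm10.
Lin28b, 3′ UTR, chr10:45381011-45381040, minus strand: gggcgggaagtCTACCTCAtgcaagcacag
Hmga2, 3′ UTR, chr10:120364213-120364242, minus strand: acattcaatttCTACCTCAgcatcagttgg
Nr6a1, 3′ UTR, chr2:38727438-38727467, minus strand: gacaaagacaaCTACCTCAatggaaacagg
Igf2bp1, 3′ UTR, chr11:95961767-95961796, minus strand: tgcgaagtaaaCTACCTCAaggtgtgaagt
Trim71, 3′ UTR, chr9:114512461-114512490, minus strand: ttgcctaagtcCTACCTCAgcttaaatttt

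Targets of the ES cell clusters miR-290 and miR-302 lay on both sides of 0. In naive cells 8 were enriched and 1 depleted, against 22.6% and 15.4% of all genes, with a median log2(FC) of 0.78. Of 18 tested in KO cells, 2 were enriched by edgeR and by DESeq2 (background 5.47% of all genes), with a median of -0.06. Cfl2, which encodes an actin-severing cofilin, was at 163 and 160.3 CPM in P-bodies against 56.3 and 47.96 CPM in the cytoplasm (log2(FC) 1.63 ± 0.26, adjusted p = 0.00716). Arid4b, a chromatin protein gene, was at 77.7 and 84.5 CPM in P-bodies against 28.4 and 35.2 CPM in the cytoplasm (log2(FC) 1.35 ± 0.24, adjusted p = 0.0137), and in naive cells at 573 and 534 CPM in P-bodies and 26.1 and 43.3 CPM in the cytoplasm. The libraries of both genes stood clear of each other, as P-body over cytoplasm, as did those of every enriched gene. Lefty1, a secreted inhibitor of NODAL signalling, overlapped between fractions at 51.8 and 48.99 CPM in P-bodies against 62.2 and 49.7 CPM in the cytoplasm (log2(FC) -0.15 ± 0.24, adjusted p = 0.756). In naive cells Lefty1 was at 154 and 157 CPM in P-bodies and 17.4 and 8.54 CPM in the cytoplasm (log2(FC) 3.58 ± 0.33). Cdkn1a, which encodes the cell cycle inhibitor p21, overlapped as well, at 163 and 142 CPM in P-bodies against 190.0 and 141 CPM in the cytoplasm, and Casp2, a caspase gene, had a log2(FC) of -0.51 ± 0.32 beside 1.52 ± 0.16 in naive cells. No 8-letter site for this seed was found for Cfl2, Arid4b or Casp2, in windows that did not cross an exon boundary. Sites for this seed lie in the 3′ UTR of Lefty1 and Cdkn1a.
Lefty1, 3′ UTR, chr1:180938202-180938231, plus strand: actgtatgcgaAGCACTTAcatgtatagat
Cdkn1a, 3′ UTR, chr17:29100489-29100518, plus strand: gtgggtgtcaaAGCACTTAgtgggtctgac

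**Figure D2:**
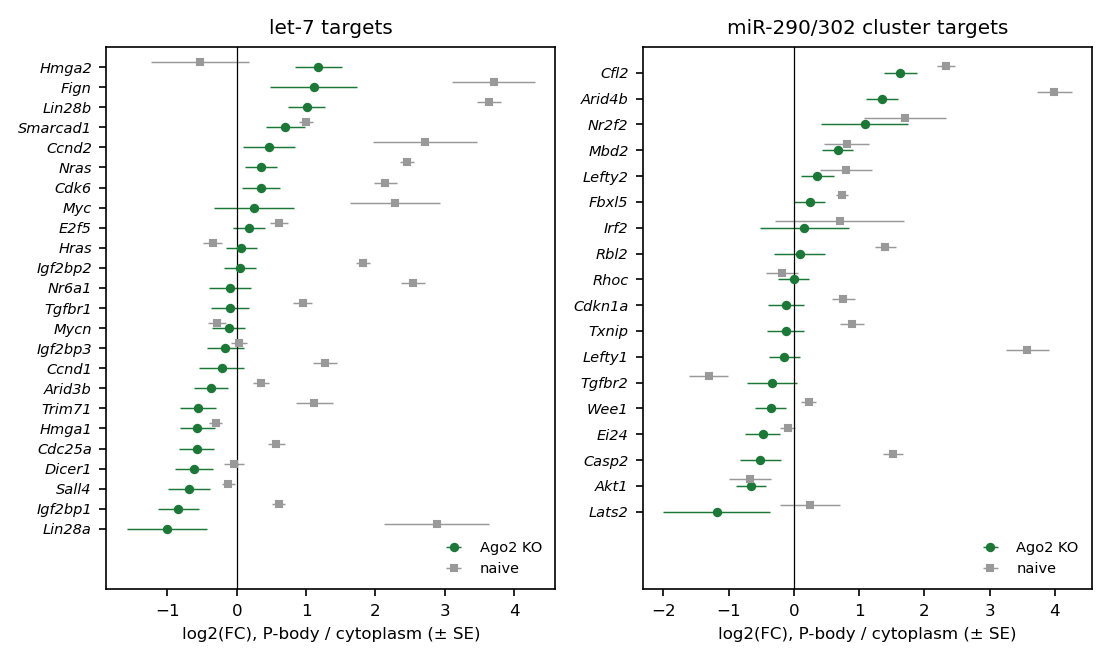
log2(FC) of P-body over cytoplasm with its SE for let-7 targets and for targets of the miR-290 and miR-302 clusters, circles for Ago2 KO cells and squares for naive cells (n = 2 libraries per fraction). Of the genes shown, Cfl2 and Arid4b passed the test in KO cells, and Lefty1 was at -0.15 in KO and 3.58 in naive cells.

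Sites were then counted in the 3′ UTR of the longest coding transcript of each of 14222 coding genes, on the strand of the mRNA. The letters searched were CTACCTCA for let-7, AGCACTTA for the miR-290 and miR-302 seed, CTTGCATA for miR-300 and CTTGTATA for miR-381, each a match to the seed followed by A, and a gene could hold several. A match is a sequence description and not a measured binding site. The 497 genes with a let-7 site had a median log2(FC) of -0.11 in KO cells, below the -0.01 of all coding genes, and 5.43% of them were enriched against 5.6% of all coding genes. In naive cells the genes with a let-7 site had a median of 0.13 beside -0.07, and 29.1% were enriched against 23.1%. The 477 genes with a site for the miR-290 and miR-302 seed had a median of 0.11 in KO cells, with 11.9% enriched, and 0.51 in naive cells, with 41.9% enriched. Medians were 0.21 (KO) and 0.35 (naive) for the 291 genes with a miR-300 site and 0.16 and 0.63 for the 488 with a miR-381 site. All 4 groups had longer 3′ UTRs than coding genes in general, with medians of 2410 to 2845 bases against 1084. Among genes in the longest of 3 equal groups (terciles) by 3′ UTR length, 7.67% of those with a let-7 site and 13.3% of those with a miR-290 and miR-302 site were enriched in KO cells, against 8.08% of all. The groups also differed in the share of G and C bases (GC) of the 3′ UTR. Its median was 42.7% with a miR-290 and miR-302 site, 41.7% with a miR-300 site and 40.7% with a miR-381 site. It was 45.2% with a let-7 site and 44.95% for all coding genes. Length, GC and sites move together here, and their parts were not tested.

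Among genes of the miRNA pathway 1 of 13 was enriched (background 5.47%), and the median log2(FC) was -0.47. In naive cells 4 were enriched, against 22.6% of all genes, and the median was 0.13. The KO median was -0.10 over members of at least 10 CPM and -0.26 to -0.75 with 1 library left out, lowest without cytoplasm replicate 1 and highest without P-body replicate 2. The enriched gene was Tnrc6a, which encodes the GW182 scaffold that Argonaute proteins bind, at 347 and 428 CPM in P-bodies against 106 and 60.9 CPM in the cytoplasm (log2(FC) 2.21 ± 0.35, adjusted p = 0.00718). Its paralogue Tnrc6b was at 37.3 and 42.5 CPM in P-bodies against 18.7 and 32.3 CPM in the cytoplasm and did not pass (log2(FC) 0.65 ± 0.29, adjusted p = 0.22), and Tnrc6c overlapped between fractions. The other Argonaute genes did not pass either. Ago1 had a log2(FC) of -0.78 ± 0.31, Ago3 was at 22.6 and 24.9 CPM in P-bodies against 7.82 and 14.6 CPM in the cytoplasm (log2(FC) 1.08 ± 0.32, adjusted p = 0.0804), and Ago4 stayed under 1 CPM in each library. The genes of miRNA processing Drosha (-0.47), Dgcr8 (-0.91), Xpo5 (-0.72), Tarbp2 (-0.10) and Prkra (-0.10) all lay below 0, with adjusted p of at least 0.091.

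Of 15 deadenylase genes 3 were enriched (background 5.47% of all genes), all encoding subunits of CCR4-NOT. Cnot4, the ubiquitin ligase subunit, was at 263 and 208 CPM in P-bodies against 48.2 and 44.7 CPM in the cytoplasm (log2(FC) 2.34 ± 0.28, adjusted p = 0.00259). Cnot6 and Cnot6l, the paralogous CCR4 nucleases, were at 151 and 158 CPM in P-bodies against 29.3 and 46.3 CPM in the cytoplasm (log2(FC) 2.03 ± 0.30, adjusted p = 0.00517) and at 47.6 and 48.5 CPM in P-bodies against 13.7 and 26.1 CPM in the cytoplasm (log2(FC) 1.28 ± 0.32, adjusted p = 0.0465). Cnot1, the scaffold of the complex, went the other way without passing, at 248 and 290.1 CPM in P-bodies against 363 and 703 CPM in the cytoplasm (log2(FC) -0.99 ± 0.36, adjusted p = 0.137), as did Pan2 (log2(FC) -0.94 ± 0.27, adjusted p = 0.0736). The same 3 subunit genes were enriched in naive cells, with log2(FC) values of 2.59, 4.10 and 3.63. There 9 of 16 deadenylase genes were enriched, against 22.6% of all genes.

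None of 18 genes for P-body core and decapping proteins passed the test in KO cells by edgeR (background 5.47% enriched and 1.05% depleted). At an unadjusted p under 0.05 there were 6 above and 2 below 0, and DESeq2 called 3, all enriched. Their median log2(FC) was 0.25. In naive cells 7 were enriched and 4 depleted, against 22.6% and 15.4% of all genes, with a median of 0.12. The KO median was 0.067 without cytoplasm replicate 1, 0.13 without cytoplasm replicate 2 and 0.14 without P-body replicate 2. Ddx6, the helicase on which P-bodies depend, was at 26.8 and 34.6 CPM in P-bodies against 17.9 and 21.6 CPM in the cytoplasm (log2(FC) 0.64 ± 0.25, adjusted p = 0.164), and in naive cells at 129 and 110.3 CPM in P-bodies and 17.2 and 27.1 CPM in the cytoplasm (log2(FC) 2.43 ± 0.24). Lsm14a, whose protein carried the GFP tag in the transgene, overlapped between fractions at 106 and 139 CPM in P-bodies against 83.1 and 115 CPM in the cytoplasm (log2(FC) 0.31 ± 0.28, adjusted p = 0.553). Transgene and endogenous mRNA cannot be told apart in this count. Dcp2, the decapping enzyme, came nearest to the threshold at 69.6 and 70.6 CPM in P-bodies against 34.6 and 41.01 CPM in the cytoplasm (log2(FC) 0.89 ± 0.23, adjusted p = 0.057). Its activators Edc4 (log2(FC) -0.78 ± 0.26, adjusted p = 0.11) and Dcp1a (log2(FC) -0.67 ± 0.28, adjusted p = 0.188) had P-body libraries below the cytoplasm libraries. No gene of the LSM ring passed. Lsm7 was at 617 and 326 CPM in P-bodies against 262 and 63.04 CPM in the cytoplasm (log2(FC) 1.53 ± 0.59, adjusted p = 0.154), and Lsm6 had a log2(FC) of 1.17, Lsm3 1.05, Lsm5 0.99 and Lsm1 0.42, while Lsm4 (0.42) and Lsm2 (-0.04) overlapped between fractions. In naive cells Lsm7 had a log2(FC) of -0.42 ± 0.10.

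The numbered zinc finger genes, many of which encode DNA-binding repressors with a KRAB domain, gave more P-body-enriched genes than any other group listed here. Of 324 tested, 102 were enriched and 4 were depleted, and they made up 11.1% of the enriched genes against 1.93% of the genes tested. Their median log2(FC) was 0.60, and 226 lay above 0. Zfp941 (chr7:140807449-140822178, minus strand) was at 149 and 149.5 CPM in P-bodies against 13.1 and 14.1 CPM in the cytoplasm (log2(FC) 3.46 ± 0.26, adjusted p = 0.00209). Zfp948 (chr17:21567008-21588699, plus strand) was at 78.4 and 75.2 CPM in P-bodies against 10.4 and 5.76 CPM in the cytoplasm (log2(FC) 3.24 ± 0.32, adjusted p = 0.00212), and the less abundant Zfp712 at 27.7 and 29.8 CPM in P-bodies against 2.86 and 4.10 CPM in the cytoplasm. Replicates of Zfp941 differed little beside the distance between fractions. The 4 depleted members were Zfp395 (-1.46), Zfp423 (-1.45), Zfp319 (-1.43) and Zfp408 (-1.39), named here after their values were seen, and Zfp687 at -0.96 ± 0.31 did not pass (adjusted p = 0.108). In naive cells 236 of 351 were enriched and 12 depleted, against 22.6% and 15.4% of all genes, with a median of 1.64.

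Base composition separated the enriched from the depleted coding genes. Median GC at the third codon position (GC3) was 41.7% in the 837 enriched coding genes, 62.3% in those not called and 65.8% in the 165 depleted ones, and 3′ UTR GC was 35.9%, 45.4% and 51.8%. Depleted genes had longer coding sequences, with a median of 3375 bases against 1458 in enriched genes and 1344 in the rest. Of genes of at least 10 CPM, 610 of 2725 in the lowest tercile of GC3 were enriched (22.4%), against 18 of 2723 (0.661%) in the highest tercile. Across genes the Spearman correlation of log2(FC) with transcript GC was -0.571 (8184 genes) in KO and -0.700 (9189 genes) in naive cells, and with GC3 it was -0.463 and -0.610. These are descriptions across genes that share libraries, not tests.

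Within the lowest tercile of GC3, zinc finger genes stood out further. Of 102 such zinc finger genes of at least 10 CPM 73 were enriched (71.6%), against 537 of 2623 other coding genes (20.5%). In the upper 2 terciles of GC3, 5 of 60 zinc finger genes were enriched (8.33%) against 83 of 5389 others (1.54%). Median log2(FC) was 1.83 and -0.12 for the zinc finger genes of low and higher GC3, and 0.47 and -0.11 for the other genes.

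Coding and transcript length had correlations with log2(FC) of opposite sign in the 2 cell lines. The Spearman correlation with coding length was -0.392 in KO cells and 0.092 in naive cells, and with transcript length -0.250 and 0.268. With 3′ UTR length it was -0.010 and 0.338. The KO value differed between the same-numbered pairs of libraries, at -0.278 for coding length in pair 1 and -0.460 in pair 2, at -0.089 and -0.368 for transcript length, and at 0.106 and -0.110 for 3′ UTR length. The 2 replicates of a fraction also differed along length, since the log2 difference of replicate 2 over replicate 1 had a correlation with coding length of 0.553 in P-bodies and 0.642 in the cytoplasm. The part of this difference between libraries in the length relation was not tested. For GC3 the same replicate differences had correlations of -0.014 and -0.117. In the lowest tercile of GC3 the median log2(FC) in KO cells was 0.67 for short, 0.57 for middle and 0.22 for long coding sequences, beside 0.49, 1.001 and 0.92 in naive cells. Genes of high GC3 and long coding sequence had medians of -0.61 and -0.52, and 8.93% of them were depleted in KO cells.

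**Figure D3:**
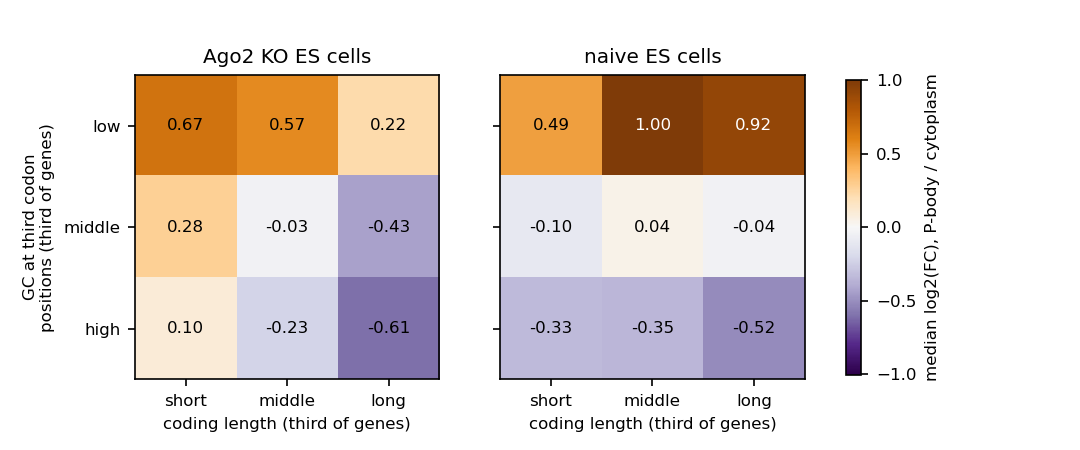
Median log2(FC) of P-body over cytoplasm for coding genes of at least 10 CPM, by terciles of GC3 (rows) and of coding length (columns), in Ago2 KO cells and in naive cells, with the colour scale in log2 units. Both maps are highest in the low GC3 row, and short genes of low GC3 are at 0.67 in KO and 0.49 in naive cells.

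Most genes of the respiratory chain and of the ribosomal proteins, whose mRNAs are short, had a log2(FC) above 0 in KO cells. In naive cells most lay below 0. Few passed the test in KO cells with fraction as its only term. With the replicate number as a block, though no label says what it marks, 52 of 92 respiratory chain genes were enriched. So were 26 of 90 cytosolic and 28 of 77 mitochondrial ribosomal protein genes, against 2565 of all 16808 genes. Of 92 nuclear genes of the respiratory chain 83 had a log2(FC) above 0 in KO cells, with a median of 0.79, against 13 of 91 in naive cells, with a median of -0.47. In KO cells 3 were enriched without the block (background 5.47%). In naive cells 2 were enriched and 45 depleted, against 22.6% and 15.4% of all genes. Ndufaf4, an assembly factor of complex I, was at 136 and 128 CPM in P-bodies against 43.4 and 27.8 CPM in the cytoplasm (log2(FC) 1.89 ± 0.29, adjusted p = 0.00645). Atp5s and Ndufaf2 were the other enriched genes, at 53.2 and 41.5 CPM in P-bodies against 20.7 and 10.1 CPM in the cytoplasm (log2(FC) 1.62 ± 0.34, adjusted p = 0.0277) and at 59.5 and 47.98 CPM in P-bodies against 27.1 and 15.3 CPM in the cytoplasm (log2(FC) 1.34 ± 0.31, adjusted p = 0.0363). In all 3, as in every enriched gene, the lower P-body library was above the higher cytoplasm library. The succinate dehydrogenase genes Sdhc and Sdha lay below 0 without passing, at -0.69 ± 0.26 and -0.21 ± 0.27. The median of the group was 0.54 in pair 1 and 0.99 in pair 2, and it was 0.32 when cytoplasm replicate 2 was left out.

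No cytosolic ribosomal protein gene of 90 passed the test by edgeR without the block. Of them 78 lay above 0, and 57 had both P-body libraries above both cytoplasm libraries, against 29.4% of all genes. Their median log2(FC) was 0.49, and 9 had an unadjusted p under 0.05, all above 0, while DESeq2 called 4 enriched. In naive cells 44 of 87 were depleted, against 15.4% of all genes, with a median of -0.41, and 3 lay above 0. Rpl38 was at 1399 and 1233 CPM in P-bodies against 965 and 180.3 CPM in the cytoplasm (log2(FC) 1.20 ± 0.62, adjusted p = 0.276), its second cytoplasm library standing far below the first. Rps27l was at 1323 and 666 CPM in P-bodies against 608 and 206 CPM in the cytoplasm (log2(FC) 1.29 ± 0.52, adjusted p = 0.17), and Rplp0, of the ribosomal stalk, at 949 and 953 CPM in P-bodies against 1016 and 1185 CPM in the cytoplasm (log2(FC) -0.21 ± 0.29, adjusted p = 0.718). Rpsa was at -0.18 ± 0.29. Without cytoplasm replicate 2 the median of the group was 0.18. Of 77 mitochondrial ribosomal protein genes 72 lay above 0, with a median of 0.41 beside -0.28 in naive cells, and of 0.11 without cytoplasm replicate 2 and 0.62 without cytoplasm replicate 1. Mrpl32 (113 and 100.5 CPM in P-bodies against 44.2 and 25.2 CPM in the cytoplasm, log2(FC) 1.62 ± 0.31, adjusted p = 0.0166) and Mrpl1 (log2(FC) 1.19 ± 0.30, adjusted p = 0.0484) were the 2 enriched, Mrpl33 was at 322 and 188 CPM in P-bodies against 131 and 39.2 CPM in the cytoplasm without passing (log2(FC) 1.59 ± 0.52, adjusted p = 0.105), and Mrpl4 (-0.23) and Mrpl10 (-0.15) were the lowest of at least 10 CPM. Median coding length was 437 bases for the respiratory chain, 447 for the cytosolic and 576 for the mitochondrial ribosomal proteins, against 1362 for all coding genes.

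None of 47 proteasome genes passed by edgeR, while 38 lay above 0, with a median of 0.35 in KO and -0.08 in naive cells. The KO median was 0.043 without cytoplasm replicate 2 and 0.58 without cytoplasm replicate 1. At an unadjusted p under 0.05 there were 5, all above 0, and DESeq2 called 3. Psmb10, a catalytic subunit of the immunoproteasome, had the highest log2(FC) of 1.37 ± 0.46 (adjusted p = 0.11), followed by Psmg4 at 1.02 ± 0.45, while the activator genes Psme3 (-0.34) and Psme4 (-0.32) were lowest among those of at least 10 CPM.

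**Figure D4:**
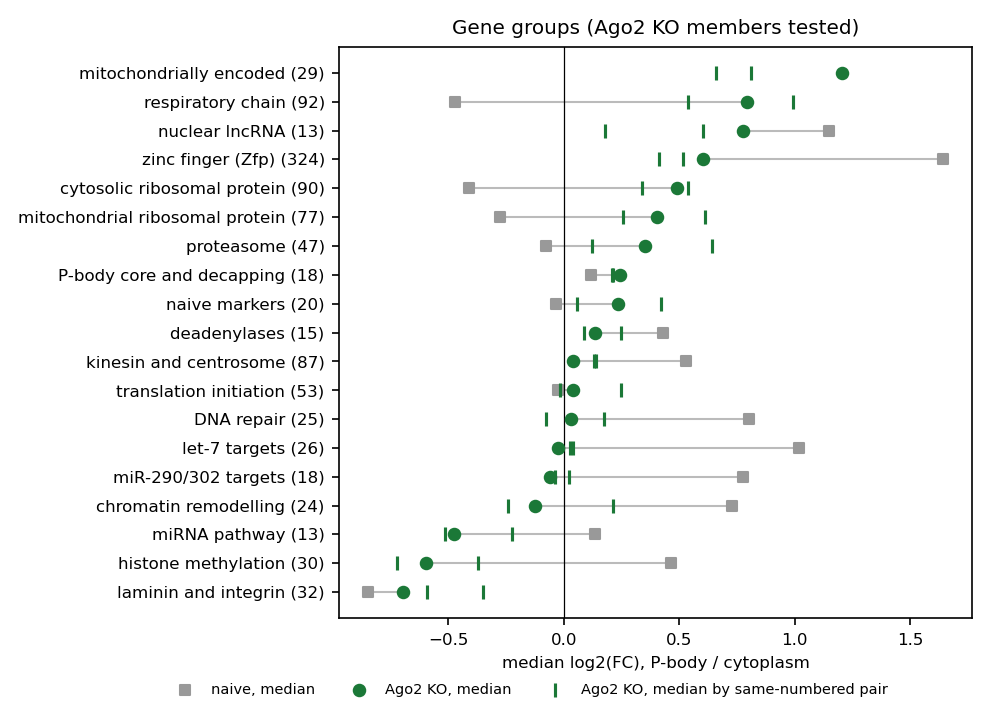
Median log2(FC) of P-body over cytoplasm for 19 gene groups, with the number of members tested in KO cells in brackets. Circles are KO medians, bars the KO medians of each same-numbered pair of libraries and squares naive medians. Respiratory chain genes are at 0.79 in KO and -0.47 in naive cells, and zinc finger genes at 0.60 and 1.64.

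RNAs of the mitochondrial genome were also enriched in part. Of 29 tested, 7 were enriched (background 5.47% of all genes), and the median log2(FC) was 1.21. mt-Atp6 and mt-Cytb, which encode subunits of the ATP synthase and of complex III, were at 2670.0 and 2616 CPM in P-bodies against 864 and 587 CPM in the cytoplasm (log2(FC) 1.86 ± 0.33, adjusted p = 0.0131) and at 3106 and 2936 CPM in P-bodies against 1257 and 912 CPM in the cytoplasm (log2(FC) 1.48 ± 0.32, adjusted p = 0.0301). mt-Nd2 (1.69), mt-Atp8 (1.85), mt-Nd3 (1.21) and the tRNA genes mt-Tq (3.03) and mt-Tp (2.81) were enriched as well. mt-Co1 overlapped between fractions at 2411 and 2682 CPM in P-bodies against 2426 and 3263 CPM in the cytoplasm (log2(FC) -0.16 ± 0.32, adjusted p = 0.808), and the 16S rRNA gene mt-Rnr2 did not pass at 1288 and 2047 CPM in P-bodies against 2692 and 7597 CPM in the cytoplasm (log2(FC) -1.62 ± 0.49, adjusted p = 0.0873). Mitochondrial genes took 1.75% and 1.81% of the P-body reads and 1.23% and 1.53% of the cytoplasm reads. Whether mitochondria were carried along in the particle sort was not tested. The naive counts held no reads for genes of the mitochondrial genome, so that no comparison with naive cells was possible.

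Translation factors moved in both directions. Of 53 initiation factor genes 8 were enriched and 1 was depleted, against 5.47% and 1.05% of all genes. Their median was 0.04. Eif2s2, the beta subunit of eIF2, was among the most abundant mRNAs of the P-body libraries, at 15088 and 14741 CPM in P-bodies against 4711 and 2177 CPM in the cytoplasm (log2(FC) 2.11 ± 0.41, adjusted p = 0.0198). Eif3e was at 1034 and 1016 CPM in P-bodies against 303 and 248 CPM in the cytoplasm (log2(FC) 1.90 ± 0.30, adjusted p = 0.00758), and Eif5b at 882 and 928 CPM in P-bodies against 388 and 329.8 CPM in the cytoplasm (log2(FC) 1.33 ± 0.29, adjusted p = 0.0313). In these 3 genes each P-body library was above each cytoplasm library by more than the replicates differed, and the cytoplasm of Eif2s2 was lower in replicate 2. Eif3j1 (1.82) and Eif3j2 (1.25), a near-identical pair between which reads could be split, Eif4e (1.29), Eif5 (1.19) and the kinase gene Eif2ak2 (0.97) were also enriched. Eif4g1, the scaffold of the cap-binding complex, was depleted at 57.8 and 76.3 CPM in P-bodies against 123 and 184 CPM in the cytoplasm (log2(FC) -1.19 ± 0.30, adjusted p = 0.0482), and Eif4ebp2 lay below 0 without passing (log2(FC) -1.48 ± 0.47, adjusted p = 0.0954). Among elongation factors and other mRNAs with a terminal oligopyrimidine tract 2 of 15 were enriched, the nucleolar chaperone gene Npm1 at 4723 and 4507 CPM in P-bodies against 1459.7 and 1290.5 CPM in the cytoplasm (log2(FC) 1.75 ± 0.31, adjusted p = 0.013) and the histone chaperone gene Nap1l1 (log2(FC) 1.17 ± 0.29, adjusted p = 0.0447). Eef1a1 (log2(FC) -0.55 ± 0.33, adjusted p = 0.344) and Eef2 (log2(FC) -0.78 ± 0.36, adjusted p = 0.225) lay below 0 without passing.

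Among genes of the mitotic spindle and centrosome 11 of 87 were enriched and 1 was depleted, against 5.47% and 1.05% of all genes. Their median was 0.04. In naive cells 46 of 89 were enriched and 8 depleted, against 22.6% and 15.4% of all genes, with a median of 0.53. Kif20b, a kinesin of cytokinesis, was at 375 and 390.1 CPM in P-bodies against 58.8 and 78.8 CPM in the cytoplasm (log2(FC) 2.48 ± 0.30, adjusted p = 0.00267), and Kif18a, which aligns chromosomes, at 235 and 236 CPM in P-bodies against 45.6 and 39.4 CPM in the cytoplasm (log2(FC) 2.47 ± 0.27, adjusted p = 0.00216). Cenpq (2.28), Cenpk (2.04), Cep83 (2.06) and Cep290 (1.47) were enriched as well. Kif13b, a kinesin of vesicle transport, was depleted at 5.33 and 5.64 CPM in P-bodies against 10.4 and 20.4 CPM in the cytoplasm (log2(FC) -1.49 ± 0.35, adjusted p = 0.0388), and Kif21b lay near the threshold at -1.24 ± 0.32 (adjusted p = 0.0544). Of 23 cyclin genes 3 were enriched, Ccne2, Ccng1 (323 and 384 CPM in P-bodies against 125 and 157 CPM in the cytoplasm, log2(FC) 1.33 ± 0.29, adjusted p = 0.0296) and Ccnt1 (log2(FC) 0.997 ± 0.24, adjusted p = 0.045), while Ccnk (-0.63) and Ccnd3 (-0.49) were lowest among those of at least 10 CPM.

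Enzymes of histone methylation, most with long coding sequences (median 4629 bases), lay more often on the cytoplasm side. Of 30 tested, 19 had both P-body libraries below both cytoplasm libraries, against 26.6% of all genes, and 4 had them above. By edgeR 2 were enriched and 3 depleted, against 5.47% and 1.05% of all genes. DESeq2 called 2 and 8, and at an unadjusted p under 0.05 by edgeR there were 3 above and 15 below 0. The median was -0.60 (-0.35 without cytoplasm replicate 2 and -0.94 without cytoplasm replicate 1). In naive cells 16 of 32 were enriched and 4 depleted, against 22.6% and 15.4% of all genes, with a median of 0.47. Kmt2e was at 240.2 and 250.1 CPM in P-bodies against 60.9 and 71.6 CPM in the cytoplasm (log2(FC) 1.89 ± 0.27, adjusted p = 0.00476) and Ash1l at 40.8 and 44.9 CPM in P-bodies against 10.1 and 16.4 CPM in the cytoplasm (log2(FC) 1.69 ± 0.29, adjusted p = 0.0104), both on the P-body side in each library. Kmt2b, at 10.3 and 14.7 CPM in P-bodies against 24.5 and 49.4 CPM in the cytoplasm (log2(FC) -1.56 ± 0.36, adjusted p = 0.037), and Setd1a, at 6.98 and 9.53 CPM in P-bodies against 17.04 and 29.5 CPM in the cytoplasm (log2(FC) -1.49 ± 0.33, adjusted p = 0.0311), were depleted with Kmt2d. All 3 depleted genes encode methyltransferases of histone H3 lysine 4. Among 24 chromatin remodelling genes Hells, a DNA methylation cofactor, was enriched at 550.0 and 481 CPM in P-bodies against 129 and 122 CPM in the cytoplasm (log2(FC) 2.04 ± 0.29, adjusted p = 0.00445) and Srcap was depleted. Chd2 was at 0.74 ± 0.25 (adjusted p = 0.119) and Arid1a, a subunit of the BAF complex, at -1.05 ± 0.30 (adjusted p = 0.0735). The naive counts were 15 enriched and 3 depleted of 24, against 22.6% and 15.4% of all genes.

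Of 25 DNA repair genes 2 were enriched in KO cells, against 5.47% of all genes, and 16 in naive cells, against 22.6%. Polk, a translesion DNA polymerase gene, was at 42.9 and 48.1 CPM in P-bodies against 7.82 and 9.06 CPM in the cytoplasm (log2(FC) 2.43 ± 0.25, adjusted p = 0.00212), and its lower P-body library was several times its higher cytoplasm library. In naive cells Polk was at 949.6 and 939 CPM in P-bodies and 15.3 and 67.6 CPM in the cytoplasm (log2(FC) 4.51 ± 0.70). Smc6, of the SMC5/6 complex, was at 349 and 357 CPM in P-bodies against 105 and 124 CPM in the cytoplasm (log2(FC) 1.63 ± 0.28, adjusted p = 0.0104). Prkdc, the DNA-dependent protein kinase, was below 0 at -1.12 ± 0.34, as was Mdc1 at -0.69 ± 0.30, and neither passed.

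Some genes of the basement membrane and of its receptors were depleted. Of 32 laminin, integrin and integrin-binding genes 4 were depleted and 1 was enriched, against 1.05% and 5.47% of all genes. Their median was -0.70, and it was -0.49 without cytoplasm replicate 2 and -0.88 without cytoplasm replicate 1. In naive cells 11 of 33 were depleted, against 15.4% of all genes, with a median of -0.85. Lama5 was at 19.7 and 23.8 CPM in P-bodies against 51.8 and 95.1 CPM in the cytoplasm (log2(FC) -1.76 ± 0.32, adjusted p = 0.0141), and Lamc1 at 89.9 and 122 CPM in P-bodies against 243 and 463 CPM in the cytoplasm (log2(FC) -1.74 ± 0.37, adjusted p = 0.027). Lama1 (log2(FC) -1.50 ± 0.32, adjusted p = 0.027) and Itga3 (log2(FC) -1.40 ± 0.32, adjusted p = 0.0342) were the other depleted genes, and in all 4 cytoplasm replicate 2 was the highest library. Itgb3bp, a centromere protein gene listed for its name, was enriched (log2(FC) 1.77 ± 0.29, adjusted p = 0.00922), and Itgb1bp1 was at 0.74 ± 0.29.

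Naive pluripotency genes were spread around 0. Of 20 tested, 1 was enriched (background 5.47% of all genes), with a median of 0.24, and DESeq2 called 2 enriched and 1 depleted. Sox2 was at 183 and 188 CPM in P-bodies against 82.6 and 90.8 CPM in the cytoplasm (log2(FC) 1.10 ± 0.26, adjusted p = 0.0383), and in naive cells at 819 and 775 CPM in P-bodies and 79.6 and 142 CPM in the cytoplasm. Dppa2 (log2(FC) 1.03 ± 0.27, adjusted p = 0.0565) and Esrrb (log2(FC) -0.94 ± 0.30, adjusted p = 0.0964) did not pass, nor did Nanog (log2(FC) -0.40 ± 0.30, adjusted p = 0.457), Klf4 (log2(FC) 0.52 ± 0.31, adjusted p = 0.338) or Zfp42 (log2(FC) 0.74 ± 0.33, adjusted p = 0.205). Tfcp2l1 was at 276 and 322 CPM in P-bodies against 323 and 499.5 CPM in the cytoplasm, below 0 at -0.46 ± 0.31. Dppa5a, the most abundant of them, was at 9812 and 7114 CPM in P-bodies against 6801 and 3665 CPM in the cytoplasm (log2(FC) 0.69 ± 0.38, adjusted p = 0.308). Tet2, a dioxygenase of DNA demethylation, was at 147 and 159 CPM in P-bodies against 69.7 and 98.7 CPM in the cytoplasm and did not pass (log2(FC) 0.86 ± 0.28, adjusted p = 0.101, naive log2(FC) 2.45 ± 0.28). Of 14 primed state genes none passed by edgeR or DESeq2, 1 had an unadjusted p under 0.05, and only Nodal and Dnmt3a reached a mean of 10 CPM, at log2(FC) values of -0.14 ± 0.24 and 0.18 ± 0.24.

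Markers of other cell types were scarce. In total 6 of 12 fibroblast, 7 of 11 primitive endoderm, 3 of 8 trophoblast, 6 of 8 neural, 2 of 8 blood and 2 of 7 lung epithelial markers were tested, and none was called by edgeR. Those with an unadjusted p under 0.05 were 2 fibroblast, 2 primitive endoderm and 1 neural marker, and DESeq2 called the 2 fibroblast ones. The summed level of the fibroblast markers was 489 and 567 CPM in P-bodies and 995 and 1744 CPM in the cytoplasm. Nearly all of it was Fn1, the fibronectin gene, at 478 and 554 CPM in P-bodies against 976 and 1719.6 CPM in the cytoplasm (log2(FC) -1.38 ± 0.36, adjusted p = 0.0528), with Pdgfrb at -0.999 ± 0.28. Col1a1 and Col1a2, which define fibroblasts, stayed under 2 CPM in each library. Among 13 nuclear long noncoding RNAs 3 were enriched (background 5.47% of all genes). None of the 4 with a mean of at least 10 CPM was among them. Kcnq1ot1 was at 6.28 and 7.33 CPM in P-bodies against 1.17 and 2.58 CPM in the cytoplasm (log2(FC) 1.87 ± 0.42, adjusted p = 0.0321). Xist was at 2.09 and 1.80 CPM in P-bodies against 0.292 and 0.198 CPM in the cytoplasm (log2(FC) 2.94 ± 0.62, adjusted p = 0.0266). These were 33, 32, 5 and 3 reads. Its antisense partner Tsix was at 5.01 and 5.19 CPM in P-bodies against 1.98 and 1.52 CPM in the cytoplasm (log2(FC) 1.53 ± 0.36, adjusted p = 0.0403). Reads of an overlapping antisense pair cannot be told apart without strand, and the strand setting is not given in the sources used here. Malat1 was at 589.6 and 621 CPM in P-bodies against 442 and 154 CPM in the cytoplasm (log2(FC) 1.02 ± 0.45, adjusted p = 0.207), Gas5 at 1.04 ± 0.40, Rian at 0.85 ± 0.27 and Meg3 at -0.54 ± 0.27.

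The genes enriched in KO cells were mostly enriched in naive cells too, whereas the reverse was less complete. Of 777 KO-enriched genes that were tested in naive cells 713 were enriched there (91.8%), while these were 21.9% of 3252 naive-enriched genes. Of 158 KO-depleted genes 111 were depleted in naive cells (70.3%), which was 4.82% of 2304. Over all 13711 genes tested in both, 3252 were enriched and 2304 depleted in naive cells. The 2 comparisons share no libraries. The Pearson correlation of log2(FC) across 7578 genes of at least 10 CPM in both was 0.660 and the Spearman correlation 0.549. Naive-enriched genes had a median of 0.54 in KO cells and 1.35 in naive cells. Among those of at least 10 CPM in both, the share enriched in KO cells went from 4.63% where the naive log2(FC) was under 1 to 22.6% between 1 and 2, 52.9% between 2 and 3, 87.4% between 3 and 4 and 93.1% at 4 or more. The naive test called 5941 of 15630 genes (38%), and the log2 difference between its P-body replicates had an SD of 0.129, against 0.27 in KO cells, so that a gene could pass in naive cells at a smaller difference.

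**Figure D5:**
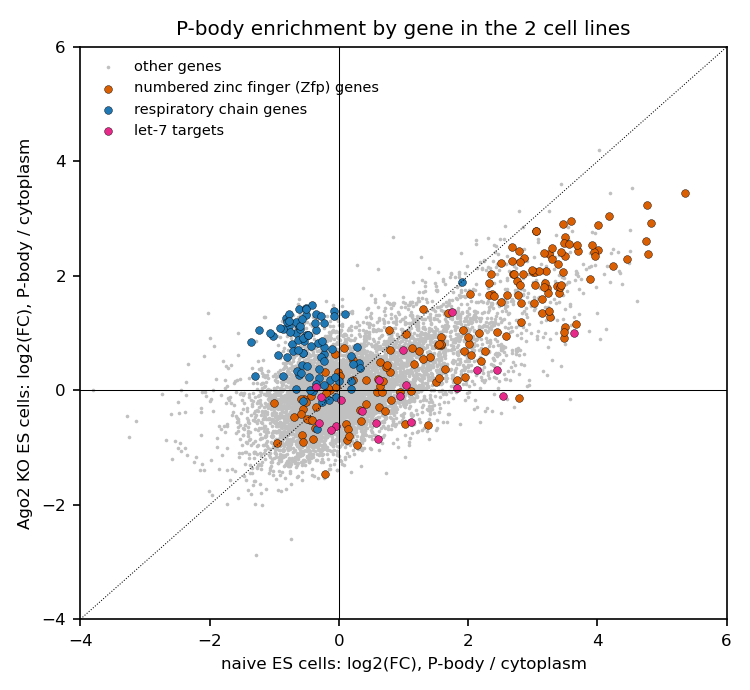
log2(FC) of P-body over cytoplasm in Ago2 KO cells (vertical) against naive cells (horizontal), 1 point per gene of at least 10 CPM in both, with the diagonal dotted. Zinc finger genes lie along the upper right, respiratory chain genes to the left of and above the origin, and most let-7 targets within 1 unit of 0 on the KO axis, with Lin28b at 1.01 in KO and 3.64 in naive cells.

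Opposite calls in the 2 cell lines were rare, with 3 among 13711 genes tested in both. Wdfy3, a gene of selective autophagy, was depleted in KO cells at 13.8 and 13.8 CPM in P-bodies against 26.4 and 48.8 CPM in the cytoplasm (log2(FC) -1.44 ± 0.32, adjusted p = 0.0306) and enriched in naive cells at 166 and 166 CPM in P-bodies and 95.3 and 105 CPM in the cytoplasm (log2(FC) 0.73 ± 0.10). BC053393 was enriched in KO cells at 3.62 and 4.79 CPM in P-bodies against 1.17 and 0.992 CPM in the cytoplasm (log2(FC) 1.95 ± 0.42, adjusted p = 0.0276) and depleted in naive cells (-1.53 ± 0.40). Gm2260 had 18 and 33 reads in the KO P-body libraries and 0 in the cytoplasm libraries, and in naive cells a log2(FC) of -0.59 ± 0.17. These 3 genes were named after their values were seen.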

How the data were processed

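The authors made the values from RNA sequencing reads and deposited them as estimated counts (expected counts) per gene, with Ensembl gene identifiers for the Ago2 KO libraries and gene symbols for the naive libraries. The study names salmon for one of its library methods, and the submitters' processing notes list HISAT2, featureCounts and DESeq2 with the build mm10. Which library method, strand setting and annotation release stand behind the KO counts is not given in the sources used here. Not whole were 11.64% to 13.1% of the KO values and 18.25% to 20.01% of the naive values, and the deposited estimated counts were rounded to whole numbers here.

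Each table was fitted alone with the quasi-likelihood test of edgeR 4.0.16 (two-sided, TMM scaling, R 4.3.3) over genes with at least 10 reads summed over 4 libraries, with fraction as the only term, and p-values were adjusted by Benjamini-Hochberg over all genes of the table. SE were taken from the fold change and the F statistic. DESeq2 1.42.0, its size factors in edgeR, other filters, the replicate number as a block, the removal of structural and mitochondrial RNA, and leaving out each library were alternatives. The test was checked on simulated data. Gene features came from GENCODE M21 (mm10), which held 16756 of 16808 KO genes (99.69%) and 15273 of 15630 naive symbols (97.72%), and miRNA sequences from RefSeq, which held 8 of 8. The named genes were those of the lists for the P-body core, the miRNA pathway, let-7 targets, targets of the ES cell clusters and naive markers, with Polk and Tet2. In each direction the 10 called genes with the largest fold change, a mean of at least 10 CPM and libraries that did not overlap were added, and the 2 members of each described list with the largest fold change in each direction. Other list members were named after their values were seen. Members and lists were chosen with earlier results of these data known. Gene lists got counts and medians only, with no set test. Fold change columns of the authors were not used. A few list members counted in the lists are not reported here by name.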

Additional observations from a re-analysis of the deposited data

Results flagged for a closer look

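In 27 of the 239 genes examined by name, both P-body libraries lay on one side of both cytoplasm libraries in Ago2 KO cells and on the other side in naive cells. The same held for 1198 of 13711 genes tested in both tables (8.74%). The difference between the cell lines was not tested, since the 2 tables come from different pipelines. Genotype, pipeline and a possible difference in library method cannot be told apart. Values in brackets are the log2(FC) in KO and in naive cells.

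The Argonaute genes Ago1 (-0.78 and 0.54) and Ago2 (-0.51 and 0.72) were among them. Of the P-body core and decapping genes there were Dcp1a (-0.67 and 0.80), Eif4enif1 (-0.19 and 0.58), Lsm7 (1.53 and -0.42) and Patl1 (-0.51 and 0.29), where LSM7 is a short ring subunit and the others are repressors or decapping activators. The let-7 target list and its regulators gave Igf2bp1 (-0.85 and 0.60), Lin28a (-1.01 and 2.89), Trim71 (-0.56 and 1.12), Cdc25a (-0.58 and 0.57) and Arid3b (-0.37 and 0.35), and other miRNA target genes Casp2 (-0.51 and 1.52), Txnip (-0.13 and 0.90) and Wee1 (-0.35 and 0.22). Of the naive markers there were Dppa3 (0.66 and -0.48), Dppa5a (0.69 and -0.87), Tdgf1 (0.44 and -1.67) and Tfcp2l1 (-0.46 and 0.26). The short genes Mrpl33 (1.59 and -0.61), Rpl38 (1.20 and -0.50) and Sec61g (1.17 and -0.54), of the ribosomes and of the translocon, lay on the P-body side in KO cells. The long genes Arid1a (-1.05 and 0.62), Prkdc (-1.12 and 0.24), Zfp687 (-0.96 and 0.27) and Wdfy3 (-1.44 and 0.73) lay on the cytoplasm side there. BC053393 was at 1.95 and -1.53. Gm2260, with 0 reads in both KO cytoplasm libraries, had a fitted KO value of 7.64, which depends on the prior count and is no bound, and was at -0.59 in naive cells.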

How the results depend on the processing

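The number of genes called in KO cells depended on the setting. Against 1095 genes, 919 enriched and 176 depleted, DESeq2 called 1731 (516 depleted), DESeq2 size factors in edgeR 716 (46 depleted), and a fit with no filter 2643 (1762 enriched, 881 depleted). Enriched genes were 83.9% of the calls, 70.2% with DESeq2 and 93.6% with size factors. Leaving out 1 library gave 446 to 5617 calls, 415 to 2734 enriched and 31 to 2883 depleted, the lone library then being assumed to vary like the other fraction. It was 446 without P-body replicate 1, 603 without P-body replicate 2, 5617 without cytoplasm replicate 1 and 2134 without cytoplasm replicate 2. For naive cells the ranges were 2056 to 10018, 1785 to 5171 and 271 to 4847. The cause was not tested. Replicate numbers are shared between fractions with no label saying what they mark. The deviations of same-numbered KO libraries had a correlation of 0.602, from 2 pairs, and of naive libraries -0.058. With the replicate number as a block 4178 KO genes were called (2565 enriched, 1613 depleted) and 5740 naive genes, against 5941. The block gave 52 of 92 respiratory chain genes enriched, 26 of 90 cytosolic and 28 of 77 mitochondrial ribosomal protein genes, against 3, 0 and 2 without it.

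None of the 1095 called genes changed sign under any of these settings. The P-body and cytoplasm libraries did not overlap in any of the 919 enriched and 176 depleted genes. Leaving out 1 library could therefore hardly change a sign, and the kept signs are no added support. Of 103 called genes among those examined by name, 97 were called by DESeq2, 66 with size factors, 98 with the filter of edgeR, 103 with no filter, 103 with the block, and 38, 50, 103 and 98 without P-body replicate 1 and 2 and cytoplasm replicate 1 and 2. The median of let-7 targets was -0.10 over members of at least 10 CPM, -0.0094 with the block and -0.18 to 0.090 with 1 library left out. With 1 library left out the median was 0.18 to 0.61 for cytosolic ribosomal proteins, 0.32 to 1.45 for the respiratory chain and 0.51 to 0.58 for zinc finger genes, and 0.99 for zinc finger genes of at least 10 CPM. It was 0.098 to 0.29 for naive markers and -0.073 to 0.19 for initiation factors. The median of genes with a miR-300 site was 0.20 over coding transcripts. In the replicate 2 pair alone the median of all coding genes was 0.061 and of genes with no site 0.062.

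These genes, none called, changed sign when 1 library was left out: Tnrc6c (-0.49 to 0.30), Tarbp2 (-0.37 to 0.081), Prkra (-0.25 to 0.034), Lsm14a (-0.020 to 0.53), Xrn1 (-0.73 to 0.056), Lsm2 (-0.28 to 0.090), Igf2bp2 (-0.12 to 0.18), Hras (-0.014 to 0.12), Ccnd1 (-0.55 to 0.012), Cdk6 (-0.027 to 0.63), Tgfbr1 (-0.43 to 0.12), Nr6a1 (-0.56 to 0.32), Cdkn1a (-0.35 to 0.0067), Rbl2 (-0.30 to 0.39), Irf2 (-0.58 to 1.18), Tgfbr2 (-0.75 to 0.011), Rhoc (-0.29 to 0.16), Tbx3 (-0.21 to 0.14), Tcl1 (-0.30 to 0.43), Nr0b1 (-0.032 to 0.25), mt-Co1 (-0.47 to 0.037), Gm42418 (-0.87 to 0.85), Psme4 (-0.75 to 0.047) and Dnmt3a (-0.017 to 0.29). Near 0, Rhoc was at 0.0011 with the filter of edgeR and 0.0059 with the block, Tbx3 at 0.0031 with the filter and Gm42418 at 0.0028 with the block.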

Other observations

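Other gene groups are given beside the 5.47% of all genes enriched and the 1.05% depleted in KO cells. Of 75 ubiquitin conjugating and deubiquitinating enzyme genes 6 were enriched, led by Ube2v2 (2.39) and Usp53 (1.52) with Usp15, Usp16, Usp29 and Ube2w. Usp24 (-1.22) and Usp36 (-0.97) were lowest of at least 10 CPM and did not pass. In naive cells 35 genes of this group were enriched and 11 depleted, against 22.6% and 15.4% of all genes. Of 79 chaperone genes 3 of the DnaJ family were enriched, Dnajc2 (1.72), Dnajb6 (1.24) and Dnajb9 (1.16), and Hspg2, listed for its name, was depleted. Of 31 splicing factor genes of the SR and hnRNP families 3 were enriched, Srsf3 (1.51), Srsf10 (1.47) and Srsf12 (1.45), while Hnrnpul2 (-0.82) and Hnrnpl (-0.78) did not pass. Of 22 cholesterol synthesis genes the isomerase gene Idi1 (1.83) and the desaturase gene Sc5d (1.19) were enriched, and the reductase gene Dhcr7 (-0.94) did not pass. Of 25 genes of translocation and folding in the endoplasmic reticulum Sec62 (2.17) was enriched, and Sec61g (1.17), Sec61a1 (-0.80) and Stt3b (-0.54) did not pass. All these values are log2(FC).

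Single members were called in several groups. Ddx52 (2.04) was enriched among 53 helicase genes, Rab14 (1.26) and Rab9 (1.27) among 57 RAB GTPase genes, Snhg14 (1.48) among 14 hosts of small nucleolar RNAs and Hist2h2ac (1.27) among 66 histone genes, whose near-identical copies can share reads. Col5a1 (-1.64) was depleted among 25 collagen genes. Of 15 entries for genes of the 2-cell-like state Gm5662 (1.61) and 1 of both Zscan4f entries (1.95) were enriched, and these multicopy genes can share reads too. Among 10 ribosomal and structural RNAs Gm26917 was enriched and Rn18s-rs5 depleted. None of 16 glycolysis genes was called by edgeR or DESeq2, 1 having an unadjusted p under 0.05, and their median was -0.24. None of 43 SLC25 carrier genes was called by edgeR, 3 had an unadjusted p under 0.05, and DESeq2 called 1.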
